A study of Mus musculus with 2 samples.

Results

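The 10 genes described here, Creld2, Pdia4, Sdf2l1, Dnajb11, Hspa5, Hsp90b1, Herpud1, Manf, Xbp1 and Dnajb9, belong to the stress response of the endoplasmic reticulum (ER), out of 17097 genes named on the arrays. They were chosen by gene name with their differences in these data already known, as every probe set whose platform annotation gives 1 gene symbol and that symbol is one of the 10. This gave 16 of 45037 probe sets, and no probe set annotated to several genes held a member. Because the choice used the contrast between the arrays, the differences below are a description and carry no test.

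Mouse embryonic stem (ES) cells of strain C57BL/6, grown feeder-free on gelatin with leukemia inhibitory factor (ESGRO), received a virus carrying either a scramble hairpin (control KD) or a short hairpin against Tet2 (TET2 KD), transcribed from the U6 promoter of a vector with puromycin resistance. Both groups were in puromycin for 72 hours, and total RNA was read on Affymetrix arrays of 3′-primed cRNA. Each group is 1 array, so no value has an error, and having only 2 arrays limits the precision. The study asked how gene expression differs between the 2 groups. Tet2, an enzyme that oxidises methylated cytosine in DNA, read 5.62 and 5.57 (log2 signal, control KD then TET2 KD) in one probe set and 5.48 and 5.22 in the other, so it did not separate the arrays by 2-fold. For that reason the arrays go by their labels below, and no direction is tied to a loss of Tet2.

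The ER folds proteins bound for secretion and for membranes. When unfolded proteins build up there, sensors in its membrane switch on chaperones, folding enzymes and the machinery that removes failed proteins. ATF6 is cut free to enter the nucleus, IRE1 splices the Xbp1 message into that of an active transcription factor, and PERK slows translation while favouring ATF4. ATF6 and spliced XBP1 act together with NF-Y at short promoter elements, and most of the 10 genes are known targets of that arm. In bulk RNA, fewer cells of a type and less RNA per cell cannot be told apart.

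Those elements were looked for in the promoters, since most of the members are known targets of the factors that act there. Members were picked as genes of this response, so matches in them are a description and carry no test. RefSeq promoters of build GRCm38.p6, from 250 bases before to 50 bases after the transcription start, were found for 9 of the 10 members, all except Manf. The ER stress element (ERSE) was searched as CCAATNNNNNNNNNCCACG, the second form (ERSE-II) as ATTGGNCCACG and the core of the unfolded protein response element (UPRE) as TGACGTG, each on both strands. ERSE occurred in 39 of 32851 promoters (0.119%) and in 3 of the 9 members, Hspa5, Hsp90b1 and Creld2. ERSE-II occurred in 12 promoters (0.0365%) and in 2 of the 9, Herpud1 and Dnajb11. The UPRE core occurred in 2.01% of promoters and in 1 member, Hspa5. Of the genes with an ERSE or ERSE-II, Creld2 and Dnajb11 lie on the lower side of the pattern described further on. Hspa5, Hsp90b1 and Herpud1 have 1 probe set on each side of it. The 5 promoters with these elements are shown. Each is given 5′ to 3′ on the gene's strand, and capitals mark the fixed letters of the element.

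Hspa5, chr2:34771890-34772089, plus strand, bases -200 to -1 from the start, with ERSE at -65 to -47.
Hspa5: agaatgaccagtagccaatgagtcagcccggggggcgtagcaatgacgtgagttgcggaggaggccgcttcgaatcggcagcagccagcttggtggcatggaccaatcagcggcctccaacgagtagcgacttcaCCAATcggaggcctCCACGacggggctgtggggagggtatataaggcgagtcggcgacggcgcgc
Hsp90b1, chr10:86705445-86705664, minus strand, bases -220 to -1, with ERSE at -212 to -194 and, in the reverse orientation, at -107 to -89.
Hsp90b1: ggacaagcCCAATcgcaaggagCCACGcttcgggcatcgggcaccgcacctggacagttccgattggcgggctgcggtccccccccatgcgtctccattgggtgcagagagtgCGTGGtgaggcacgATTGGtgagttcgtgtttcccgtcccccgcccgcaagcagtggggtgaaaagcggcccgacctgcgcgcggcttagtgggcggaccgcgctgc
Creld2, chr15:88819446-88819645, plus strand, bases -200 to -1, with ERSE in the reverse orientation at -126 to -108.
Creld2: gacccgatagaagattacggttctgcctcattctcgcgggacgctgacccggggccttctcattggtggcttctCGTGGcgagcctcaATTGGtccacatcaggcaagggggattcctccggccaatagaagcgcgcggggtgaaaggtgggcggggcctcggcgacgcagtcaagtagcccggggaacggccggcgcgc
Herpud1, chr8:94386289-94386428, plus strand, bases -140 to -1, with ERSE-II at -52 to -42.
Herpud1: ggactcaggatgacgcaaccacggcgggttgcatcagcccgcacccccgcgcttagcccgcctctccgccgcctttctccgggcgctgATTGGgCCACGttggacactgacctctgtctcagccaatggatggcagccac
Dnajb11, chr16:22857843-22857872, plus strand, bases -2 to 28, with ERSE-II at 8 to 18, past the start.
Dnajb11: ccggcggcgATTGGcCCACGcctggctgct

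The other 4 promoters, of Dnajb9, Sdf2l1, Pdia4 and Xbp1, had no match to ERSE or ERSE-II in this window. The half-sites alone were common: CCAAT stood in 37.4% of promoters and CCACG in 32.8%, each in 8 of the 9 members, with Xbp1 holding neither. A match describes letters only, and no factor's binding was measured here.

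**Figure D1:**
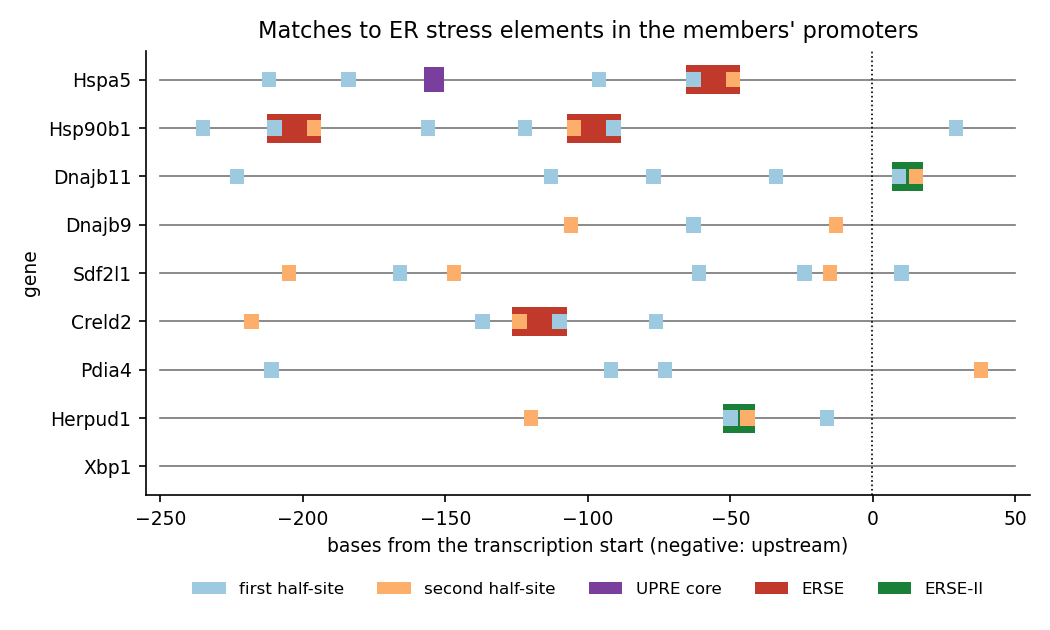
Positions of matches in the 9 promoters found, in bases from the transcription start (dotted line), on either strand; tall boxes are ERSE, ERSE-II and the UPRE core, and small boxes are the half-sites, whether alone or inside an element. Hsp90b1 holds 2 ERSE matches, Hspa5 and Creld2 hold 1 each, and Xbp1 holds none of the motifs searched.

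Across the members the data showed a split with nothing in between. Of the 16 probe sets, 15 had a mean of both arrays at or above the floor, which is the median of all values (2.55 on the log2 scale). Of these 15, 7 were lower by 2-fold or more in the TET2 KD-labelled array, with differences from -2.12 to -1.27, and the other 8 were all higher there, by 0.17 to 0.60, short of 2-fold. Over all 22537 probe sets that reached the floor, 1.13% were lower to that extent and 0.887% were higher. The members were chosen with this contrast known, so nothing is read from their count beside that share. The median difference was 0.17 for the 15 probe sets and 0.00 for all probe sets.

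**Figure D2:**
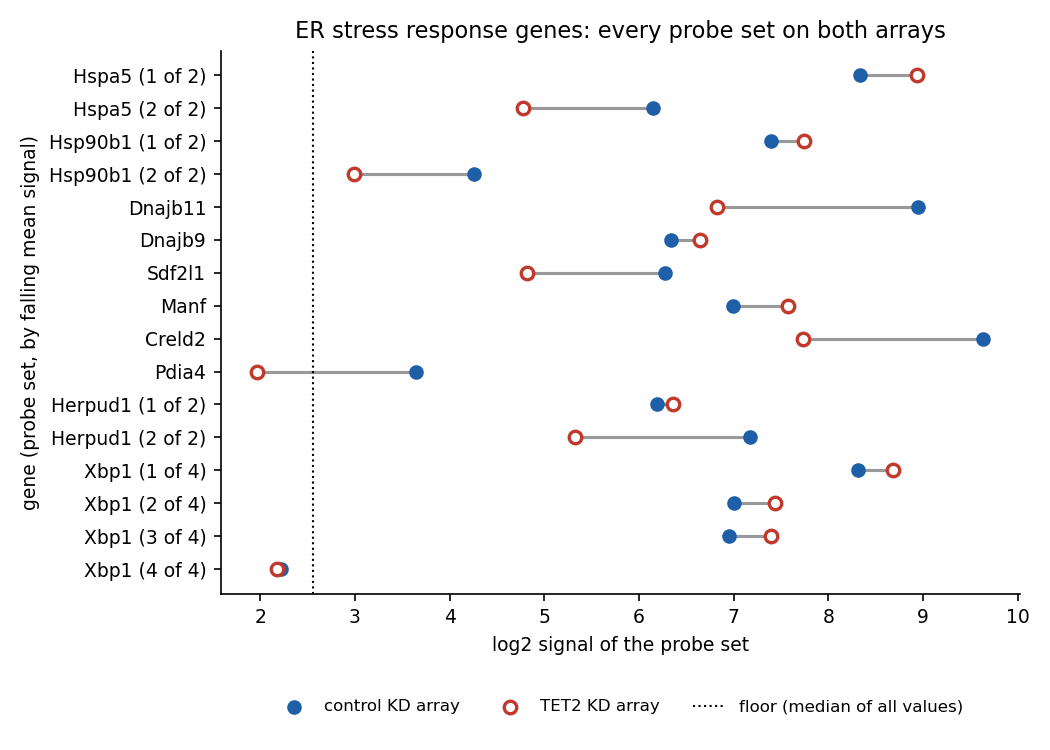
Log2 signal of all 16 member probe sets on the arrays labelled control KD (filled) and TET2 KD (open); probe sets of a gene are numbered by falling mean signal, and the dotted line is the floor at 2.55. In 7 probe sets the open symbol lies well to the left, and the last Xbp1 probe set is under the floor on both arrays.

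The chaperones that bind unfolded chains differed between their own probe sets. Hspa5 encodes BiP, the Hsp70 of the ER that also holds the stress sensors inactive. Its probe set 1416064_PM_a_at read 8.34 under the control KD label and 8.94 under the TET2 KD label, a difference of 0.60. The other, 1427464_PM_s_at, whose suffix marks probes shared between transcripts, read 6.15 and 4.78, a difference of -1.37 that left 38.7% of the control signal. Hsp90b1 encodes GRP94, the Hsp90 of the ER. Its probe set 1438040_PM_a_at read 7.39 and 7.75, a difference of 0.36, and 1415889_PM_a_at read 4.26 and 2.99, a difference of -1.27. In both genes the probe set with the higher mean was higher in the TET2 KD-labelled array, and the one with the lower mean was lower there.

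The co-chaperones of BiP, each read by 1 probe set, lay on opposite sides. Dnajb11 encodes ERdj3, a J-domain protein that hands unfolded chains to BiP. It read 8.95 and 6.82, a difference of -2.12, 4.36-fold lower in the TET2 KD-labelled array. This was the 42nd lowest of the 22537 differences, and of the 1506 probe sets within 0.5 of its mean level 4, itself included, differed as far downward. Dnajb9 encodes ERdj4, a J-domain protein that also restrains IRE1. It read 6.33 and 6.65, a difference of 0.31, and 4.48% of the probe sets near its level differed as far upward. Sdf2l1, an ER protein found in complexes with ERdj3, went with Dnajb11: it read 6.28 and 4.82, a difference of -1.46, and 0.333% of the probe sets near its level differed as far downward.

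The folding enzyme and the small secreted factors were also divided. Pdia4 encodes ERp72, a disulfide isomerase. It read 3.64 in the control KD-labelled array and 1.97, under the floor, in the TET2 KD-labelled array, at least 2.12-fold lower against the floor. Creld2, an ER-resident protein with EGF-like domains that is secreted under stress, read 9.64 and 7.73, a difference of -1.91 that left 26.6% of the control signal. Its 850 neighbours in level included 3, itself among them, with a difference as low. Manf, a neurotrophic factor released by stressed ER, read 6.995 and 7.57, a difference of 0.58, and 1.57% of the probe sets near its level differed as far upward. Over the higher member probe sets such shares ran from 1.12% (Hspa5) to 13.3% (Herpud1). Over the lower ones they ran from 0.256% (Herpud1) to 0.814% (Hsp90b1). Pdia4, Creld2 and Manf have 1 probe set each, so no second reading of the same gene could be set beside them.

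Herpud1 encodes an ER membrane protein that recruits the degradation machinery. Its probe set 1448185_PM_at read 6.19 and 6.36, a difference of 0.17. The other, 1435626_PM_a_at, read 7.17 and 5.32, a difference of -1.85, which 0.256% of the probe sets near its level reached. The means of both arrays were 6.27 and 6.24 in these probe sets. A rule that keeps the higher mean took the first by this small margin, and the gene's direction rested on that choice.

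Xbp1, the transcription factor spliced by IRE1, was the member whose probe sets moved alike. The 3 at or above the floor read 8.31 and 8.68, 7.01 and 7.44, and 6.95 and 7.40, with differences of 0.37, 0.43 and 0.44. All 3 were higher in the TET2 KD-labelled array, and their differences lay 0.08 apart. Those at 8.31 and 7.01 under the control KD label carry the suffix for shared probes, as does the lower Hspa5 probe set. Without the shared ones no agreement within Xbp1 could be read. The fourth read 2.22 and 2.18, under the floor on both arrays, and gives no direction. Whether any of these probe sets tells the spliced from the unspliced message is not given in the sources used here, so IRE1 activity was not read.

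**Figure D3:**
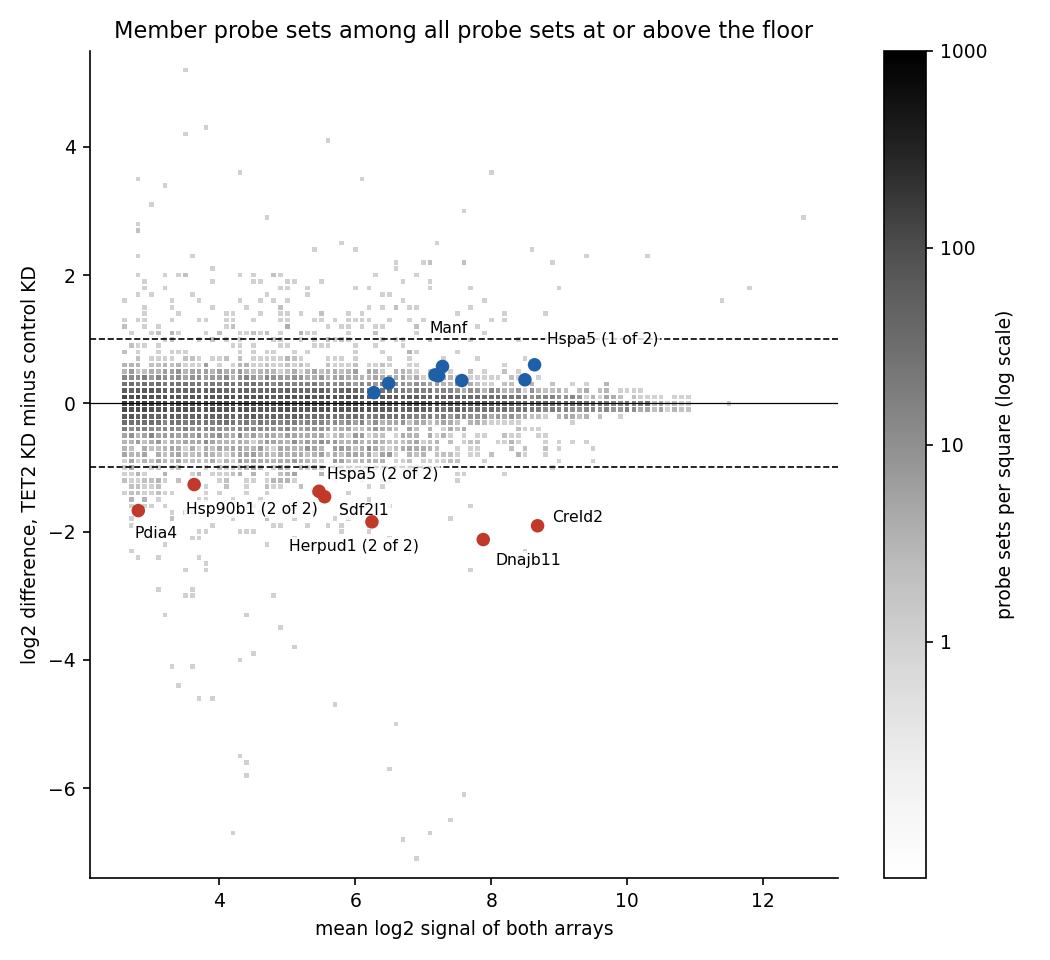
Log2 difference (TET2 KD minus control KD) against mean log2 signal for all 22537 probe sets at or above the floor, counted in grey squares of 0.1 by 0.1, with the 15 member probe sets on top; dashed lines mark 2-fold. The 7 red points lie under the lower line between -2.12 and -1.27, and the 8 blue points lie between 0.17 and 0.60.

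Probe sets of one gene thus went apart in 3 of the 4 members that have 2 or more at or above the floor. Opposite signs by themselves were common, at 51.8% of 3654 such genes. Opposite signs with a probe set lower by 2-fold or more, as in Hspa5, Hsp90b1 and Herpud1, occurred in 38 of those genes (1.04%). The 2 differences were 1.97 apart in Hspa5, 1.62 in Hsp90b1 and 2.01 in Herpud1. Over all 2477 genes with exactly 2 probe sets at or above the floor, the median distance was 0.14, the 95th percentile was 0.84, and 29 genes (1.17%) reached 1.5. In all 3 members the probe set with the higher mean was the one above 0. Over the 38 genes the probe set with the highest mean was above 0 in 19 (50%).

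**Figure D4:**
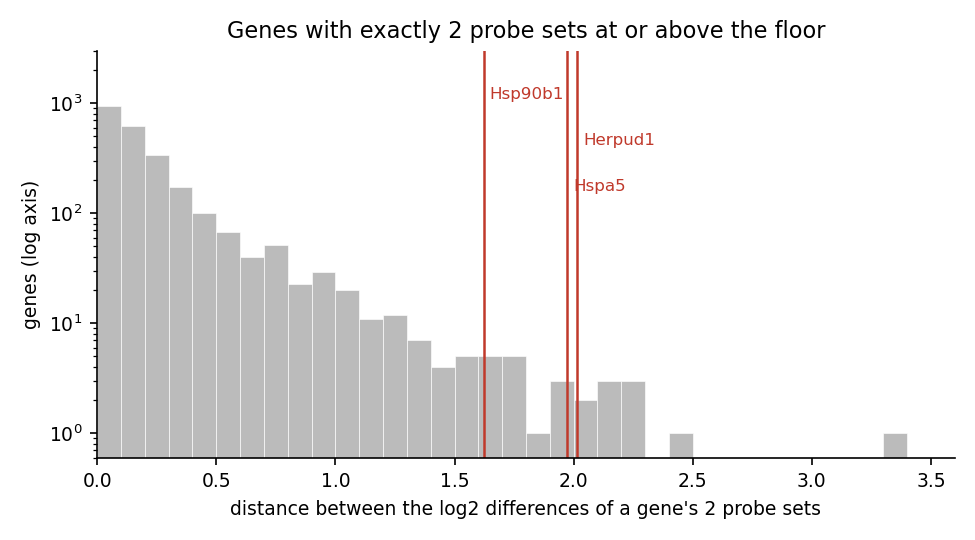
Number of genes (log axis) by the distance between the log2 differences of their 2 probe sets, for the 2477 genes with exactly 2 at or above the floor, in steps of 0.1. Red lines mark Hsp90b1 at 1.62, Hspa5 at 1.97 and Herpud1 at 2.01, where few genes lie.

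The count of genes depended on which probe set stood for a gene. Taking for each gene its brightest probe set, that of the highest mean, 4 of the 10 members were lower by 2-fold or more (Dnajb11, Creld2, Pdia4 and Sdf2l1) and 6 were higher short of it, beside 1.41% of 11174 genes lower and 1.17% higher. By the mean of all probe sets the same 4 were lower by 2-fold or more, beside 1.02% of genes, but Hspa5 (-0.38), Hsp90b1 (-0.45) and Herpud1 (-0.84) turned to the lower side. By the probe set with the lowest mean at or above the floor, an alternative added after the values were seen, 7 were lower by 2-fold or more, beside 1.43% of genes. Manf, Xbp1 and Dnajb9 were on the higher side under all 3 rules. The 4 genes that were lower under every rule are each read by a single probe set, as are Manf and Dnajb9. For genes with a single probe set the rules cannot differ. Of all genes at or above the floor, 1.75% of those with 1 probe set and 1.12% of those with more were 2-fold lower.

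Matches to the promoter elements were set beside this split, without a test. Creld2 with an ERSE and Dnajb11 with an ERSE-II were 2-fold lower. Hspa5 and Hsp90b1 with an ERSE and Herpud1 with an ERSE-II had 1 probe set on each side, so they cannot be placed. Without a match to either element, Sdf2l1 and Pdia4 were 2-fold lower, and Dnajb9 and Xbp1 were higher short of 2-fold. Outside the members, 12 genes with an ERSE were at or above the floor, 6 of them in the ER lists below. None of the 12 passed 2-fold, beside 1.41% of all genes lower and 1.17% higher, so with so few genes that count says little. Above 0 were 8 of the 12. The share of all genes above 0 was not counted, so nothing is read from this. Differences of the 12 ran from -0.68 for Acacb to 0.31 for Calr, with Adcy3 at -0.36 and Hnrnpa3 at -0.07. Among them Dnajc3 differed by 0.20 to 0.52 in its 4 probe sets at or above the floor, Ero1b by 0.18, Syvn1 by 0.08 and 0.15 and Canx by 0.05 and 0.28, and Pdia6 read 8.66 on both arrays. Ero1b also read 3.17 and 1.43 in a probe set whose mean did not reach the floor. The 6 further genes with an ERSE-II differed by -0.13 to 0.11.

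The wider pathway was read from 6 lists of 150 other genes, of which 127 were at or above the floor, each by its brightest probe set. Of these 127, 6 (4.72%) were 2-fold lower in the TET2 KD-labelled array and none was higher, beside 1.41% and 1.17% of all genes. Their median difference was -0.05, and 81.9% differed by less than 0.25, beside -0.01 and 81.4% of all genes. With 1 array per group there is no test of these counts.

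Of 26 other ER chaperones and folding enzymes none passed 2-fold, and the median was -0.05. Calr, the lectin chaperone calreticulin, differed by 0.31 and 0.36 in its 2 probe sets. Pdia5, a disulfide isomerase, differed by -0.79, Txndc11 by -0.64, and Ero1a, an oxidase that recharges disulfide isomerases, by -0.57, although its other 2 probe sets differed by 0.08 and -0.11. Of 22 genes of ER-associated degradation 1 was 2-fold lower: Edem2, a mannosidase-like protein that marks misfolded glycoproteins, read 5.84 and 4.50. Edem3, of the same family, differed by -0.68. Sel1l, the scaffold of the Hrd1 ligase, differed by -0.77 in 1 probe set and by -0.02 to 0.03 in the other 3 at or above the floor. H13, the signal peptide peptidase, differed by 0.56 in 1 probe set and by 0.00 to 0.17 in the other 3 at or above the floor.

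None of 12 sensors and membrane-bound factors passed 2-fold, with a median of 0.01. Ern1, which encodes IRE1, differed by 0.39, and Atf6 by 0.19 and -0.03 in its 2 probe sets. Tmbim6, an inhibitor of cell death in the ER membrane, differed by -0.17 and the transcription factor Creb3l2 by -0.14. All 12 lay between -0.17 and 0.39.

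The PERK and ATF4 branch held 5 of the 6 pathway genes past 2-fold. Cebpg, a partner of ATF4, read 8.96 and 6.35, a difference of -2.61, in 1 probe set, but its other 2 differed by 0.07 and 0.15. Slc3a2, the heavy chain of amino acid transporters, was at least 2.498-fold lower against the floor, at 3.87 and 1.55. Ppp1r15a, which encodes GADD34, the subunit that lets translation resume, read 3.49 and 1.99, at least 1.92-fold lower, and counts as past 2-fold by its measured difference of -1.50. Psph, an enzyme of serine synthesis, differed by -1.32 and the transcription factor Atf5 by -1.16. Other genes of the branch did not pass 2-fold: Atf4 differed by 0.20, with a second probe set under the floor on both arrays (-0.12), Ddit3, which encodes CHOP, by -0.03, Asns by 0.06 and Chac1 by -0.23. The median of the 27 was -0.08. Asns, Ddit3, Atf4 and Chac1 were named after their values were seen.

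Of 22 genes of the translocon, signal peptidase and N-glycosylation none passed 2-fold. Tram1, a translocon partner, differed by -0.54 and -0.05 in its 2 probe sets and Stt3a, a catalytic subunit of the oligosaccharyltransferase, by -0.36, while Rpn1 differed by 0.17 and Spcs3 by 0.13. Of 18 genes of transport between ER and Golgi none passed 2-fold either, with a median of -0.07. Lman1, a cargo receptor also called ERGIC-53, differed by -0.82 in 1 probe set and by -0.07 and -0.15 in 2 others. Mcfd2, its partner, differed by -0.74. Kdelr1, a receptor that returns ER residents from the Golgi, differed by -0.23, and Lman2 by 0.32.

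**Figure D5:**
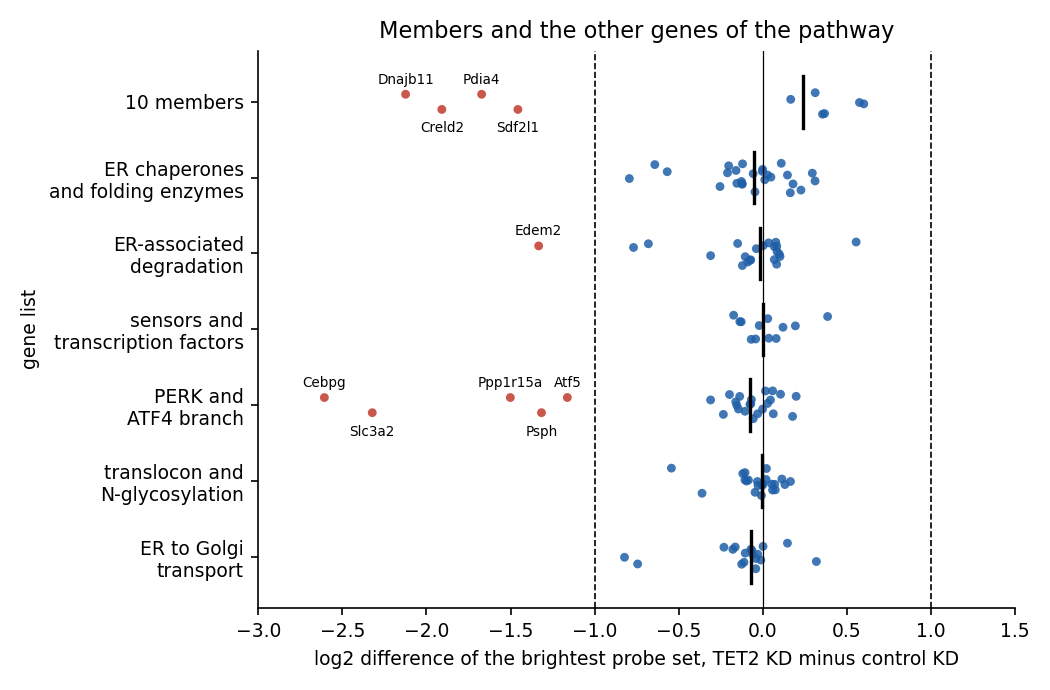
Log2 difference (TET2 KD minus control KD) of each gene's brightest probe set for the 10 members and the 6 lists; each point is 1 gene at or above the floor, black bars are list medians, dashed lines mark 2-fold, and the vertical position within a list carries no meaning. The red points, 4 members and 6 other genes, lie on the lower side.

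Of 10 genes lower by 2-fold among members and lists, 9 are read by a single probe set. Over all genes at or above the floor, 92 of the 158 that were 2-fold lower are. The tenth, Cebpg, has 3, of which 1 was lower. For the 9 there was no second probe set to compare, so only Cebpg could have had one past 2-fold on the same side.

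Among pituitary and nasal markers at or above the floor, most were past 2-fold on the lower side in the TET2 KD-labelled array. The share over all genes was 1.41%. The plasma cell, pancreas and oligodendrocyte lists gave no shared direction past 2-fold. Of 10 anterior pituitary markers annotated, 4 were at or above the floor and all 4 (Prl, Gh, Pomc and Fshb) were lower in the TET2 KD-labelled array by 2-fold or more, and the summed linear signal of the 10 was 3604 and 74.5. Neither array had Tshb, Tbx19, Pitx1 or Lhx3 of that list at the floor. The means of Cga and Lhb were also under it, and they went opposite ways: Cga read 1.29 and 2.80, and Lhb read 2.98 and 1.57. Of 11 nasal and airway epithelium markers 8 reached the floor, and 6 of them (Bpifa1, Cyp2a5, Cyp2g1, Stoml3, Cyp2f2 and Sec14l3) were 2-fold lower. Of these, Bpifa1, Cyp2a5, Cyp2g1, Stoml3 and Cyp2f2, like Fshb, were under the floor in the TET2 KD-labelled array. Their means reached it only through the control KD-labelled array. Against the floor they were at least 6.77-fold (Fshb) to 33.5-fold (Bpifa1) lower. Foxj1 (3.40 and 3.67) was higher short of 2-fold, and Gnal (7.53 and 7.29) was lower short of it. The remaining probe sets of Gnal had differences above 0. The sum over the 11 was 859 and 199.7, with Omp, Scgb1a1 and Obp1a under the floor on both arrays. Jchain, the joining chain of secreted antibodies, read 5.09 and 3.27, and Prdm1, a transcription factor of plasma cells, read 5.07 and 5.23, while Tnfrsf17, Irf4 and Ighm of the same plasma cell list were under the floor on both, and the sum of its 5 markers was 74.8 and 54.7. Of 7 exocrine pancreas markers 6 were under the floor on both arrays (sums 22.3 and 24.8). All 7 oligodendrocyte markers were at or above the floor, from Mog (3.32 and 3.18) to Mbp (10.32 and 10.22), with Mag at 7.24 and 7.01. Why oligodendrocyte markers read at these levels on both arrays, which are labelled as ES cells, was not tested. Of the 7 differences 6 were below 0, all short of 2-fold, the median was -0.13, and the sums were 2047 and 1919. Opalin was past 2-fold, higher (1.13), with a second probe set under the floor on both arrays (-0.33). The part of these cell types in the differences of the ER genes was not tested.

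Of 14 annotated markers of the labelled cell type, 9 were at or above the floor. Zfp42, Utf1 and Sall4 were among them, and so was Dppa5a, close to the floor at 2.64 and 2.56. Pou5f1 (1.07 and 1.29) and Nanog (1.01 and 0.97), which define ES cells, were under the floor on both arrays. Lin28a, Tfcp2l1 and Tcl1 were under it on both as well. The sums over the 14 were 3193 and 3223, and Klf4 was past 2-fold, higher, in 1 probe set (1.01) and not in the other (0.51). Of all probe sets, 1892 share both values with another probe set, how this arose is not known, and none of the 16 member probe sets is among them.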

How the data were processed

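Values are the authors' deposited log2 signals per probe set, 1 column per array. The submitters' processing notes name Affymetrix Expression Console. Not given in the sources used here are its version, background correction, summary and scaling, and the log2 scale was read from the values. Of 45141 probe sets, 104 Affymetrix controls were left out. The platform annotation gives 28898 of the others 1 symbol, 551 several and 15588 none, and only the first were named. In the lists, 6 genes were found under an older name through a RefSeq gene table.

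A difference is TET2 KD minus control KD, and 2-fold is a log2 difference of 1. Probe sets counted when their mean of both arrays reached the floor of 2.55, the median of all values. A value under the floor on 1 array gives a bound against it. No test was run, with 1 array per group. RefSeq promoters (GRCm38.p6) were searched for exact matches.

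Named by rule were all probe sets of the members, Tet2, the 4 genes of each list with the largest differences, markers past 2-fold, Pou5f1 and Nanog. Other genes were named after their values were seen. The members and lists were chosen with earlier results of these data known. Alternatives covered scaling, floor, shared probe sets, the rule for several probe sets and the threshold. The procedures were tested on simulated data. Software was Python 3.11.15 with numpy 2.4.6, matplotlib 3.10.9 and pandas 2.3.3.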

Additional observations from a re-analysis of the deposited data

How the results depend on the processing

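Counts were redone with other scalings, floors, probe set rules and a lower threshold. The 4 members lower by 2-fold by their brightest probe set stayed 4 after median centring and quantile normalization. They also stayed 4 with a floor at the 25th percentile or none, without shared probe sets, and in the mean or median of probe sets. Each of the 4 has 1 probe set, not marked as shared, so these last settings could not drop any of them. A lower floor or none could not change the count either, since all 10 members were already at or above the main floor. With the floor at the 75th percentile 3 were left. Members lower by 2-fold were 7 by the probe set with the lowest mean, added after the values were seen. No member was higher by 2-fold under any of these, and at 1.5-fold 1 probe set and 1 gene, Hspa5, were. The median of member probe sets turned from 0.17 to -0.55 without shared probe sets, since those of Xbp1 and Hspa5 leave, and the members whose probe sets share a sign went from 1 to 0 there, with no floor and with a 25th percentile floor, since other Xbp1 probe sets leave or enter. Lower pathway genes were 3 with the floor at the 75th percentile, where fewer genes are read, and 12 at 1.5-fold. A difference or median counted as moved when it shifted by more than 0.15, the robust SD of all differences, and a count when it changed by more than 1.5 times. Replicates could not be left out, and no paired analysis was possible because each group is 1 array.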

Other observations

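A few further genes are named here after their values were seen, from no fixed list, so they carry no count or share. Ficd, the enzyme that switches BiP off and on by AMPylation, read 3.20 (control KD) and 2.02 (TET2 KD), at least 1.57-fold lower against the floor, by 1 probe set, and the bound is short of 2-fold. Serpinh1, the collagen chaperone HSP47 of the ER, was lower in both of its probe sets, by -1.25 and -1.43. C1galt1c1, the ER chaperone Cosmc, read 6.63 and 4.83 in 1 probe set. Sumf1, which activates sulfatases in the ER, differed by -1.67 in a probe set marked as shared, while its other read 3.17 on both arrays.

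Among the kinases that act beside PERK on the same translation factor, Eif2ak4, the amino acid sensor GCN2, was on the higher side, at 2.56 and 3.62 in 1 probe set. Eif2ak1 differed by -0.04 to 0.13 in 3 probe sets, and Eif2ak2 was under the floor on both arrays.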
